A study of Mus musculus with 12 samples.

Results

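The 32 miRNA hairpins described here are the members of the mouse series mir-7210 to mir-7243 that the deposited tables list, out of 1050 hairpins listed in all. They were chosen by number. The range itself was picked because several of its hairpins had lower values in sperm of mice on a high-fat diet, before any adjustment for multiple tests. The range holds 34 numbers, and mir-7228 and mir-7239 were not listed in any library. Each hairpin's reads were expressed as CPM, its counts per 1000000 of all reads that a library had in miRBase, the miRNA database, with reads matched and not matched to the genome added. The nearest listed hairpins outside the range had almost no sperm reads. mir-7119 had 0 CPM in all 6 sperm libraries and between 0.0297 and 0.532 CPM in TM4 cells, and mir-7578 had at most 0.0808 CPM in sperm and 0 in TM4 cells.

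The study sequenced small RNAs of sperm and of a testis cell line to ask how a high-fat diet changes the small RNA of the male germline. Sperm came from the epididymis of male C57BL6/J mice. They were given a control diet (CD, AIN-93G, 16% of energy from fat) or a high-fat diet (HFD, D12492, 69% of energy from fat by the sample labels, where the study's methods give a lower figure) for 7 weeks from 4 weeks of age by the labels (a legend of the study gives a later start), and each of the 3 libraries per diet pooled sperm of 3 mice. TM4 is an established mouse Sertoli cell line, the somatic cell type that nurses germ cells in the testis. Its 6 libraries were 2 of control cells (Ctrl), 2 of cells treated with Compound C (CC, an inhibitor of the energy-sensing kinase AMPK, 10 µM for 12 h) and 2 of cells overexpressing angiogenin (Ang OE), a ribonuclease that cuts tRNAs. For the overexpression the mouse Ang coding sequence was placed in the vector pDEST26. The labels do not name a vehicle or an empty vector for the Ctrl cells, and they do not say that TM4 libraries came from separate cultures, so p-values measure only the spread between these libraries.

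A miRNA hairpin is a folded stretch of a longer transcript from which the enzymes Drosha and Dicer cut mature miRNAs from either arm. The mature miRNA guides Argonaute to messenger RNAs mainly through its seed, bases 2 to 8. Male germ cells also make piRNAs, somewhat longer small RNAs bound by PIWI proteins. In the pachytene stage they are cut from long noncoding transcripts without a hairpin, and many begin with U.

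RefSeq (GRCm38.p6, the assembly that the labels call mm10) holds mature sequences for 29 of the 32 hairpins, 52 in all. Those of 7 hairpins are shown, with the seed in capitals. They are the 5 hairpins with the most reads among those within long noncoding RNA (lncRNA) genes, on which the sperm results turn, mir-7224, which has most of the TM4 reads, and mir-7238, whose 3p miRNA is the shortest. The tables count reads per hairpin, so which arm a read came from is not known.
mmu-miR-7217-5p: aACUUGUAucuugugagacagaagg
mmu-miR-7217-3p: uGAGAACCcacaagcaagaaga
mmu-miR-7210-5p: uAACAUUGuagacaggcacaaag
mmu-miR-7210-3p: uUAUAUGUaaguaacaauguggcu
mmu-miR-7242-5p: aUUGGGCUugggaggugcuugu
mmu-miR-7242-3p: uGGCAGCUcggcucuacucugg
mmu-miR-7234-5p: uUGUUUUCuccaaagacguuucu
mmu-miR-7234-3p: aAACGUCUuucuaggguagaagg
mmu-miR-7214-3p: cUCAGUCCugaccccuugagcgca
mmu-miR-7224-5p: gGGUAGGCcccucagugaaga
mmu-miR-7238-5p: aUGCGGAUgggacgcggc
mmu-miR-7238-3p: cUGUCCUUuguguuc

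The hairpins were no seed family. All 52 mature miRNAs had different seeds, and 6 of the 52 had the seed of a mouse miRNA outside the list, among them miR-7238-3p and miR-7242-3p above. Their lengths ran from 15 nt (miR-7238-3p) to 27 nt, with a median of 22 nt. Of the 52, 44.2% were 23 nt or longer and 55.8% began with U, beside 23.9% and 40.8% of the other 1686 mature mouse miRNAs in RefSeq. These shares are descriptions of the annotation and not of the reads, whose lengths the tables do not give.

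The hairpins lay in 2 kinds of place by the GENCODE M39 annotation, in which all 32 were matched by name. A group of 13 lay within lncRNA genes and no other gene. They were mir-7210, mir-7214, mir-7216, mir-7217, mir-7218, mir-7221, mir-7222, mir-7229, mir-7230, mir-7233, mir-7234, mir-7241 and mir-7242. A further 18 lay within protein-coding genes, on either strand, and mir-7232 lay in no annotated gene. mir-7217 (chr17:27355738-27355799, plus strand, GRCm38.p6) and mir-7218 (chr17:27358097-27358155, plus strand) lay in an exon of the same lncRNA gene, Gm49794, 2297 bases apart. mir-7216 was 27277 bases before mir-7217 and mir-7214 (chr17:27317035-27317095), on the minus strand, 11289 bases before mir-7216. Other neighbours were mir-7221 and mir-7222 on chromosome 2 (2324 bases apart, antisense to Gm74944), mir-7229 and mir-7230 on chromosome 5 (13044 bases apart, in 4930405N21Rik) and mir-7241 and mir-7242 on chromosome 9 (1718 bases apart, in an intron of Gm30936, with mir-7242 at chr9:67729499-67729577, minus strand). mir-7210 (chr14:24088877-24088930, plus strand) lay in an intron of Gm52992 and mir-7234 (chr7:73819590-73819641, plus strand) in an exon of Gm21269. Among the lncRNA-hosted hairpins, 60.9% of the 23 mature miRNAs were 23 nt or longer and 60.9% began with U.

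The libraries held 31710445 to 64038150 clean reads and 11412945 to 35704399 miRBase reads. The 32 hairpins had 12824 reads in sperm and 3119 in TM4 cells, and all 15943 were matched to the genome. The annotation divided a read with several matches among them. All 189 hairpin values above 0 were within 1e-06 of a whole number of reads. Intervals of CPM given below are 95% Wilson intervals, and those of ratios between TM4 and sperm reads are exact binomial intervals. All cover counting error only. CD replicate 2 stood apart from the other sperm libraries. The 20 listed miRNA genes known from testis germ cells (among them mir-34b, mir-34c, mir-449a, mir-741 and mir-743a) summed to 12278 CPM in it, beside 4203 to 6561 CPM in the other 5, and it had 121181 genome-matched piRNA reads per 1000000 clean reads without rRNA (RPM), beside 50759 to 70907. Epithelial miRNAs (the mir-200 and mir-141 group) summed to 8946 to 14327 CPM in sperm and 1.28 to 2.38 CPM in TM4 cells. Blood miRNAs such as mir-451a and mir-144 summed to 25239 to 50595 CPM in sperm, so the sperm libraries also held miRNAs known from other cell types. Smooth muscle miRNAs summed to 30612 to 56120 CPM in sperm and 49714 to 129039 CPM in TM4 cells. White blood cell miRNAs summed to 592 to 1435 CPM in sperm and 1210 to 1489 CPM in TM4 cells. The mesenchymal list (mir-199a, mir-214, mir-221 and others), as an adherent line may carry, summed to 21698 to 28001 CPM in TM4 cells. No miRNA in the lists defines Sertoli cells, so that identity was not checked.

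In sperm a pair of hairpins made up most of the reads. mir-7217 took 47.4% of them and mir-7210 a further 20.0%. mir-7217 had 73.3, 232 and 80.5 CPM in CD replicates 1 to 3 and 61.3, 20.5 and 15.2 CPM in HFD replicates 1 to 3. All 3 HFD libraries lay below all 3 CD libraries, although HFD replicate 1 was close to CD replicate 1. mir-7210 had 17.9, 92.4 and 44.5 CPM in CD and 23.1, 15.7 and 10.3 CPM in HFD sperm. Here the groups overlapped, since HFD replicate 1 lay above CD replicate 1. The mean level of mir-7217 over the CD libraries was 129 ± 89.5 CPM (SD, n = 3), against 32.4 ± 25.2 CPM over the HFD libraries. That of mir-7210 was 51.6 ± 37.7 and 16.3 ± 6.44 CPM.

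**Figure D1:**
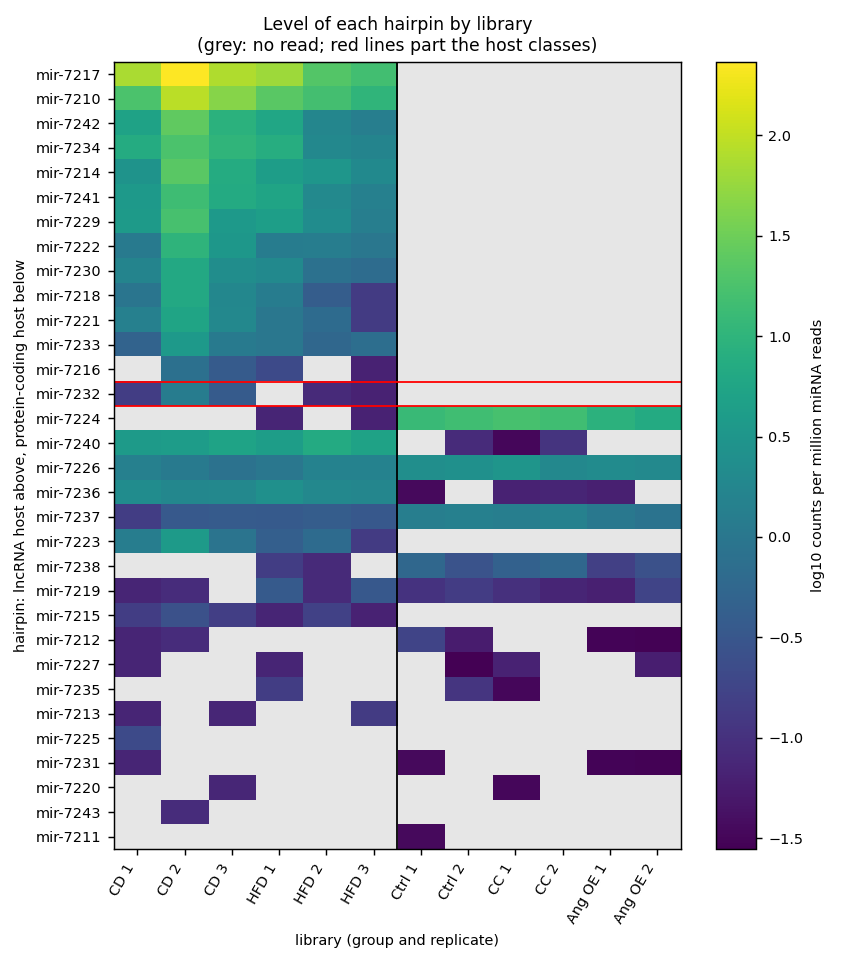
Level of each of the 32 hairpins (rows) in each of the 12 libraries (columns), in log10 CPM of miRBase reads, with grey for no read. The 13 lncRNA-hosted hairpins above the upper red line have reads in every sperm library, except mir-7216 in CD replicate 1 and HFD replicate 2, and are grey in all 6 TM4 libraries. mir-7224 has most of its colour in the TM4 libraries.

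The next hairpins, all lncRNA-hosted, were far less abundant. mir-7242 had 5.15, 25.2 and 9.01 CPM in CD and 5.81, 1.78 and 1.35 CPM in HFD sperm. mir-7234 had 7.23, 18.2 and 10.3 CPM in CD and 7.67, 1.86 and 1.62 CPM in HFD sperm. mir-7214 had 2.93, 23.3 and 7.28 CPM in CD and 4.30, 3.23 and 2.02 CPM in HFD sperm. In each of these 3 hairpins CD replicate 2 was the highest library and HFD replicate 1 lay above CD replicate 1, so the diet groups overlapped. mir-7241 had 3.58, 14.3 and 7.06 CPM in CD and 5.38, 1.94 and 1.42 CPM in HFD sperm. mir-7229 had 3.86, 17.1 and 3.53 CPM in CD and 4.45, 2.26 and 1.35 CPM in HFD sperm. Again CD replicate 2 was the highest library and the diet groups overlapped.

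The remaining hairpins of this kind were lower. mir-7230 had 1.65, 6.40 and 2.33 CPM in CD and 2.01, 0.808 and 0.675 CPM in HFD sperm. mir-7222 had 1.14, 9.90 and 3.30 CPM in CD and 1.22, 1.29 and 1.01 CPM in HFD sperm. mir-7221, its neighbour on chromosome 2, had 1.43, 5.34 and 1.88 CPM in CD and 1.00, 0.646 and 0.135 CPM in HFD sperm. Of these 3 only mir-7221 had every HFD library below every CD library. mir-7218 had 0.930, 6.40 and 1.80 CPM in CD and 1.22, 0.404 and 0.135 CPM in HFD sperm. mir-7223, which lies antisense in an intron of Prkca, the gene of protein kinase C alpha, had 1.29, 3.77 and 0.901 CPM in CD and 0.430, 0.646 and 0.135 CPM in HFD sperm. The lowest of these values, 0.135 CPM in HFD replicate 3, rests on 2 reads.

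The values in sperm of both diets chose the range, so the comparison of HFD with CD is a description of the list and has no test. Of the 32 hairpins 16 reached 10 reads in 3 or more sperm libraries, and mir-7223 did so through the CD libraries alone. Of the other 16 none had more than 14 reads in a sperm library. Among the 16, 12 had an unadjusted p under 0.05 in the edgeR quasi-likelihood fit over 451 hairpins, all lower on the HFD, and these are the values that chose the range. Over all 451 hairpins 5.76% were lower at that threshold, and 0 passed at an adjusted p under 0.05. In either direction 31 hairpins (6.87%) had an unadjusted p under 0.05. DESeq2 gave 8 of all hairpins at an adjusted p under 0.05, and 4 of them, all lower on the HFD, were on the list, which is again a description because this contrast chose the range. Just inside the unadjusted threshold lay mir-7229, at a fitted log2 difference of -1.63, and just outside it mir-7233, at -1.19, with 0.501, 3.59 and 1.13 CPM in CD and 1.00, 0.565 and 0.742 CPM in HFD sperm. In 3 of the 16 every HFD library lay below every CD library, beside 2.22% of all hairpins tested.

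Much of the difference in group means lay in CD replicate 2. The 13 hairpins with enough sperm reads and no TM4 read, which are 12 of the lncRNA-hosted group and mir-7223, had their highest value there in 13 of 13 cases, at 2.52 to 8.12 times the median of the other 5 sperm libraries. How many of all hairpins tested peaked there was not counted, and the range was picked on sperm values, so this is a description. The log2 ratio of mean HFD to mean CD level of the 13 ran from -2.38 to -1.18, with a median of -1.81. Without CD replicate 2 it ran from -1.47 to -0.08, with a median of -0.93, and 6 of the 15 listed hairpins then tested, in place of 12 of 16, had an unadjusted p under 0.05, beside 15 of all 447 hairpins tested, in either direction. Without HFD replicate 3, 7 of 16 did, beside 19 of all 446. The fitted median of the 16 hairpins was -1.73, beside -0.01 over all hairpins tested and -0.08 over 25 tested of the other hairpins numbered 5000 and above. The range was picked for lower values on the HFD, so a lower list was built in. These counts and medians are descriptions.

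**Figure D2:**
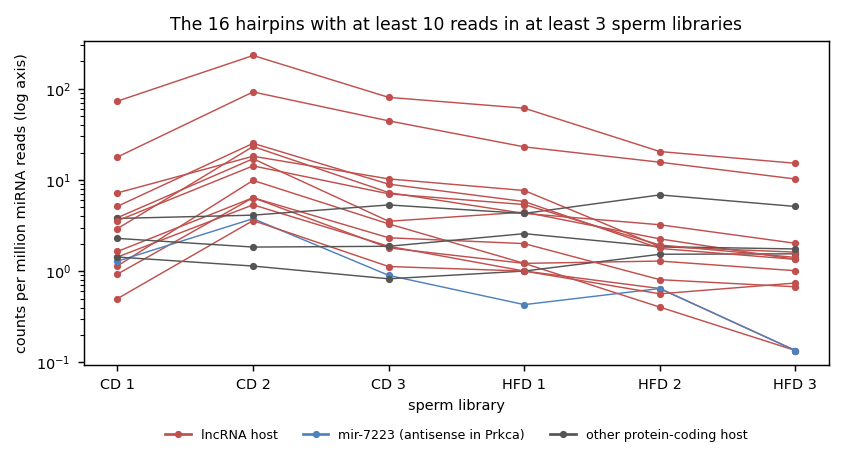
CPM (log axis) in the 6 sperm libraries of the 16 hairpins that reached 10 reads in 3 or more of them, with a line joining the values of each hairpin. The red lines (lncRNA hosts) and the blue line (mir-7223) peak in CD replicate 2, and the 3 dark grey lines (mir-7226, mir-7236 and mir-7240) do not.

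The reads of neighbouring hairpins were also set against each other. mir-7241 had 0.694, 0.566 and 0.783 reads per read of mir-7242 in CD and 0.926, 1.09 and 1.05 in HFD sperm. mir-7229 had 2.35, 2.67 and 1.52 reads per read of mir-7230 in CD and 2.21, 2.80 and 2.00 in HFD sperm. mir-7221 had 0.540 to 1.25 reads per read of mir-7222 in CD and 0.133 to 0.824 in HFD sperm, and mir-7217 had 36.3 to 78.8 reads per read of mir-7218 in CD and 50.3 to 113 in HFD sperm. The first of these 4 ratios was higher in each HFD than in each CD library, and the other three overlapped between the diets. No ratio was tested, as all rest on the contrast that chose the list, so whether any departs from a fixed ratio is not known.

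Apart from mir-7223, 3 hairpins in protein-coding genes had enough sperm reads, and none of them peaked in CD replicate 2. mir-7240, antisense in an intron of the kinase gene Mast3, had 3.79, 4.12 and 5.33 CPM in CD and 4.30, 6.86 and 5.13 CPM in HFD sperm. mir-7236, in an intron of Rab40b, had 2.29, 1.84 and 1.88 CPM in CD and 2.58, 1.86 and 1.75 CPM in HFD sperm. mir-7226, in an intron of the receptor phosphatase gene Ptprf, had 1.43, 1.14 and 0.826 CPM in CD and 1.00, 1.53 and 1.55 CPM in HFD sperm. In all 3 the diet groups overlapped and CD replicate 2 was not the highest library. Their log2 ratios of HFD to CD were 0.30, 0.04 and 0.27.

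Summed by host, the lncRNA-hosted hairpins had 120, 455 and 173 CPM in CD and 119, 51.0 and 36.0 CPM in HFD sperm, and took 93.5% of the list's sperm reads. The 18 protein-coding-hosted hairpins together had 9.66, 11.7 and 9.61 CPM in CD and 9.54, 11.6 and 9.51 CPM in HFD sperm. The lncRNA-hosted sum thus ran from 36.0 to 455 CPM over the sperm libraries and the protein-coding-hosted sum from 9.51 to 11.7 CPM. The latter sum is mostly mir-7240, mir-7236 and mir-7226, and not every member followed it, since mir-7223, at 0.135 to 3.77 CPM, peaked in CD replicate 2 and had every HFD library below every CD library. The whole list summed to 129 (123.5 to 135), 468 (455 to 480) and 183 (176 to 190) CPM on the CD and 128 (122 to 134), 62.7 (58.4 to 67.2) and 45.6 (42.3 to 49.2) CPM on the HFD. The intervals of CD replicate 1 and HFD replicate 1 overlapped, and the SDs were 182 CPM around a mean of 260.0 on the CD and 43.6 around 78.8 on the HFD. The log2 ratio of the means was -1.72, and -0.99 without CD replicate 2.

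**Figure D3:**
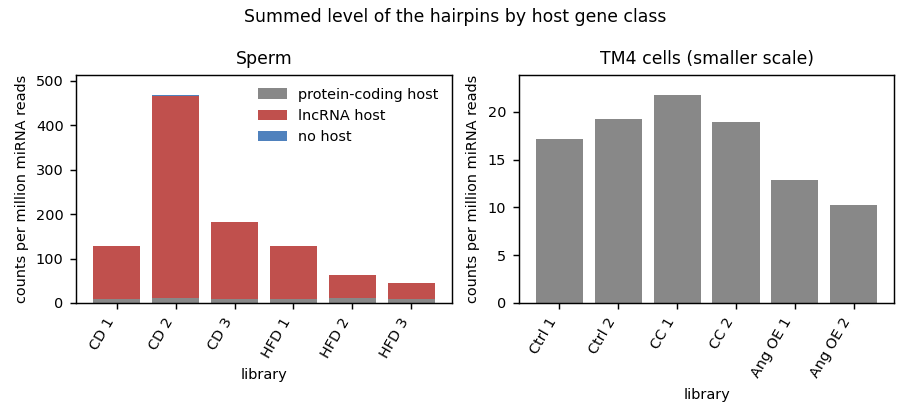
Summed CPM of the hairpins in each library, stacked by host class, on separate linear axes for sperm and TM4 cells. The lncRNA-hosted part ranges from 36.0 to 455 CPM in sperm and is 0 in TM4 cells, and the protein-coding-hosted part stays between 9.51 and 11.7 CPM in sperm.

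The summed level was set beside other readouts of germ cell small RNA. Germ cell miRNAs summed to 4208, 12278 and 6561 CPM in CD and 6380, 4203 and 4378 CPM in HFD sperm. In CD sperm there were 57937, 121181 and 70907 RPM of genome-matched piRNA, and in HFD sperm 65301, 50759 and 56042 RPM. Both were highest in CD replicate 2, as the hairpins were, but the other libraries did not follow one order. CD replicate 1 and HFD replicate 1 had list sums of 129 and 128 CPM and germ cell sums of 4208 and 6380 CPM, and HFD replicate 2, with a germ cell sum of 4203 CPM, had 62.7 CPM of the list. The list had 1152, 1858 and 1241 reads per 1000000 genome-matched piRNA reads in CD and 983, 664 and 431 in HFD sperm. On this scale every HFD library lay below every CD library and the log2 ratio of means was -1.03. Relative to the germ cell miRNA reads the log2 ratio was -1.09. Both scales were chosen after seeing the data, and the diet contrast chose the range, so these values are descriptions. The part of germ cell content in the diet difference was not tested, and in these pooled samples fewer cells of a type and less RNA per cell cannot be told apart. The piRNA databases were searched after miRBase, so a read that matched both was counted as miRNA. Whether reads of the lncRNA-hosted hairpins are miRNAs or piRNAs was not tested.

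**Figure D4:**
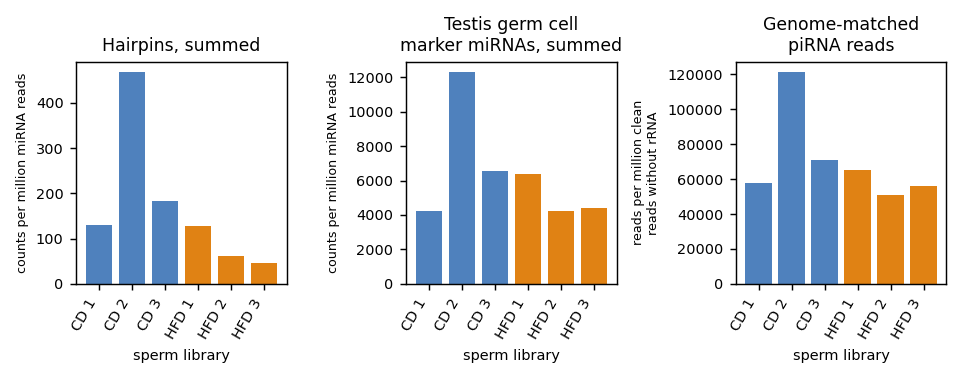
Summed CPM of the hairpins, summed CPM of the germ cell marker miRNAs and genome-matched piRNA reads in RPM of clean reads without rRNA, in the CD (blue) and HFD (orange) libraries. CD replicate 2 is the highest bar in all 3 panels (468 CPM, 12278 CPM and 121181 RPM).

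Between sperm and TM4 cells the lncRNA-hosted hairpins differed in detection. All 13 had reads in sperm and 0 of 188027004 miRBase reads in TM4 cells, which for each hairpin allows up to 0.0160 CPM over the 6 libraries (3 reads). Of all 1050 listed hairpins 170 (16.2%) had a read in sperm and none in TM4 cells. In 12 of the 13 every sperm library lay above every TM4 library, beside 225 of all 1050 listed hairpins. The hairpins were chosen for their sperm values, so these counts are descriptions. Against that limit mir-7217 was at least 5042-fold higher in sperm, mir-7210 at least 2128-fold, mir-7242 at least 505-fold, mir-7234 at least 490-fold and mir-7214 at least 450-fold. These bounds use the mean of 6 sperm libraries, which CD replicate 2 raises. Without it the bound was 3145-fold for mir-7217, 1396-fold for mir-7210, 289-fold for mir-7242, 359-fold for mir-7234 and 248-fold for mir-7214. With the lowest sperm library alone, HFD replicate 3, it was 956-fold for mir-7217 and 643-fold for mir-7210. There it was 84.6-fold for mir-7242, 101-fold for mir-7234 and 127-fold for mir-7214. The 5 were described for their high sperm levels, so the bounds are descriptions of these hairpins and not of the list. mir-7216 and mir-7232 had no TM4 read either, and 18 and 23 sperm reads. The tissue and the cell line differ in origin and preparation as well as in cell type, and these cannot be told apart.

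In the edgeR fit over all 12 libraries, which gave both diets equal weight, 84.6% of 623 hairpins differed between sperm and TM4 cells at an adjusted p under 0.05, 39.2% higher in sperm and 45.4% lower (244 and 283 hairpins). The balance turned with the method, since 205 were higher and 363 lower with miRBase reads as library size, 270 and 243 with DESeq2, 236 and 203 with the replicate block and 353 and 331 without the filter on reads. Of the 19 listed hairpins tested, 15 were higher and 3 lower. All 15 had 10 or more reads in sperm libraries alone and all 3 in TM4 libraries alone, so these 18 entered the test only through the side where they were high, which favours a difference. Their calls are therefore no result about the list, and their levels are given without a p. The largest fitted log2 differences were those of mir-7217, mir-7210 and mir-7234, which have no TM4 read, so their fitted size depends on the prior count and is no bound. mir-7240 and mir-7236 were detected in both. mir-7240 had 3.79 to 6.86 CPM in sperm and 0 to 0.108 CPM in TM4 cells, a 131-fold ratio of means, and mir-7236 had 1.75 to 2.58 and 0 to 0.0723 CPM, a 51.8-fold ratio. The TM4 values rest on at most 3 reads a library and 7 in all for each hairpin, so both ratios are imprecise. In both hairpins every sperm library lay above every TM4 library, as in 30.7% of all hairpins tested.

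The 3 hairpins that were lower in sperm all lie in protein-coding genes. mir-7224 (chr2:67675457-67675516, plus strand), in an intron of the galactosyltransferase gene B3galt1, had 2 reads in sperm, in HFD replicates 1 and 3, and 2317 in TM4 cells, a 492-fold higher rate in TM4 cells (95% exact binomial interval on the pooled reads 136 to 4066). mir-7238 (chr8:11635694-11635736, minus strand), in an exon of Ankrd10, had 3 reads in sperm and 70 in TM4 cells, a 9.91-fold higher rate in TM4 cells (3.25 to 49.2). The intervals of mir-7224 and mir-7238 cover counting error only, and replicates differed by more than that. As both hairpins entered through TM4 libraries alone, the intervals are descriptions and no test. mir-7237 (chr8:121978024-121978086, plus strand), in an intron of Banp, had 0.143 to 0.404 CPM in sperm and 0.860 to 1.48 CPM in TM4 cells, with every sperm library below every TM4 library, as in 50.1% of all hairpins tested. Its sperm values rest on 2 to 5 reads a library, and DESeq2 did not call it.

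mir-7226, with 10 or more reads in all 12 libraries, was the tested hairpin that was not called, and its direction depended on the scaling. It had 0.826 to 1.55 CPM in sperm and 1.88 to 3.12 CPM in TM4 cells. Every sperm library thus lay below every TM4 library in CPM, as in 50.1% of all hairpins tested. The TMM-scaled log2 difference was 0.09 (SE 0.23, adjusted p = 0.726), and with miRBase reads as library size it was -0.91 (adjusted p = 0.00121). Scaling moved the median of all hairpins as well, from -0.37 with TMM to -1.32 with miRBase reads and 0.03 with DESeq2. mir-7226 was 0.45 above the median of all hairpins with TMM and 0.41 above it with miRBase reads, and at -0.57 relative to it when hairpins with few reads were not filtered out.

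**Figure D5:**
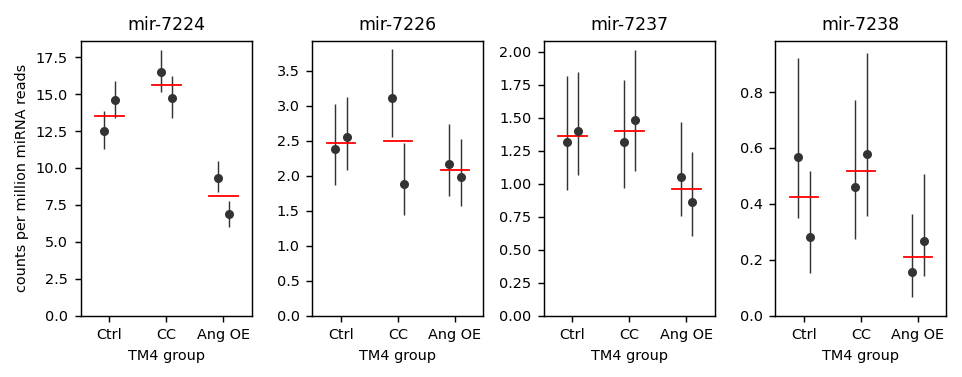
CPM of the 4 hairpins with at least 10 reads in at least 2 TM4 libraries, by TM4 group. Points are libraries with 95% Wilson intervals, red lines are the means of 2 libraries, and each panel has its own linear axis from 0. For mir-7224 both Ang OE points (9.34 and 6.85 CPM) lie below all Ctrl and CC points (12.5 to 16.5 CPM).

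In TM4 cells 4 of the 32 hairpins had enough reads to be tested, all in protein-coding genes, and mir-7224 took 74.3% of the list's reads. The rule did not use these libraries. mir-7224 had 12.5 and 14.6 CPM in Ctrl cells, 16.5 and 14.8 CPM with CC and 9.34 and 6.85 CPM with Ang OE. Both CC libraries lay above both Ctrl libraries, as in 23.1% of all hairpins tested, and both Ang OE libraries lay below them. The group levels were 13.5 ± 1.48 CPM (SD, n = 2) in Ctrl, 15.6 ± 1.24 with CC and 8.10 ± 1.76 with Ang OE.

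With CC none of the 4 hairpins was called by the edgeR quasi-likelihood test, none had an unadjusted p under 0.05 and none was called by DESeq2, beside 4.13% of 533 hairpins called. The log2 difference of mir-7224 was 0.21 (SE 0.16, adjusted p = 0.593). mir-7226 had 2.38 and 2.55 CPM in Ctrl cells and 3.12 and 1.88 CPM with CC, so the CC libraries lay on both sides of the Ctrl libraries. mir-7237 had 1.31 and 1.40 CPM in Ctrl cells and 1.31 and 1.48 with CC.

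With Ang OE mir-7224 was lower than in Ctrl cells (log2 difference -0.48, SE 0.17, adjusted p = 0.0344 by the edgeR quasi-likelihood test) and the other 3 were not called, where 38.3% of all 533 hairpins were called, 14.1% lower and 24.2% higher. The call rested on Ctrl replicate 2 and Ang OE replicate 2. It was -0.32 with an adjusted p of 0.258 without the former and -0.32 with 0.223 without the latter. Leaving out a TM4 library leaves its group with 1, which the fit assumes to vary like the other groups. mir-7237 had 1.05 and 0.860 CPM with Ang OE (log2 difference -0.24, SE 0.33, adjusted p = 0.601). mir-7238 had 0.568 and 0.280 CPM in Ctrl cells, 0.460 and 0.579 with CC and 0.155 and 0.267 with Ang OE (log2 difference from Ctrl -0.68, SE 0.66, adjusted p = 0.433). Its values rest on 5 to 16 reads a library. mir-7226 had 2.16 and 1.99 CPM with Ang OE (log2 difference 0.02, SE 0.25, adjusted p = 0.946). All 4 had both Ang OE libraries below both Ctrl libraries in CPM, as had 45.2% of all hairpins tested. The median of all hairpins was 0.06 with TMM and -0.21 with miRBase reads as library size, where 81 hairpins were called higher and 139 lower in place of 129 and 75.

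Set against CC cells, Ang OE cells had less mir-7224 (log2 difference -0.69, SE 0.17, adjusted p = 0.00344 by edgeR), where 41.5% of all hairpins were called and 15.2% were called lower (140 higher and 81 lower, but 83 and 143 with miRBase reads as library size). Both Ang OE libraries lay below both CC libraries, as in 46.2% of all hairpins tested. This call held in each alternative tried, at -0.53 (adjusted p = 0.0473) without Ang OE replicate 2 and -0.62 (adjusted p = 0.0483) without CC replicate 1, both with 1 library left in that group. The other 3 were not called, with log2 differences of -0.01 for mir-7226, -0.28 for mir-7237 and -1.01 for mir-7238 (SE 0.65, adjusted p = 0.227). The comparisons of CC and Ang OE with Ctrl share the Ctrl libraries. The list summed to 17.2 and 19.2 CPM in Ctrl cells, 21.7 and 19.0 CPM with CC and 12.9 and 10.3 CPM with Ang OE, mostly mir-7224. Germ cell miRNAs summed to 1047 to 1090 CPM in Ctrl, 959.9 to 1050 with CC and 1964 to 2067 with Ang OE, with 6 to 11 of 22 hairpins at 0 in each group. Smooth muscle miRNAs summed to 49714 to 55567 CPM in Ctrl, 51422 to 73465 with CC and 94556 to 129039 with Ang OE, and mesenchymal miRNAs to 27082 to 28001, 24402 to 25225 and 21698 to 22744 CPM. Blood miRNAs summed to 2737 to 2857 CPM in Ctrl, 1879 to 1956 with CC and 1762 to 1784 with Ang OE, and white blood cell miRNAs overlapped between Ctrl and Ang OE. The part of these lists in the mir-7224 difference was not tested.

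The remaining 11 hairpins, all in protein-coding genes, had few reads anywhere. mir-7219 was detected in 11 of the 12 libraries, at up to 0.358 CPM, and mir-7215 in all 6 sperm libraries, at 0.0675 to 0.263 CPM, with no TM4 read. mir-7211, mir-7212, mir-7213, mir-7220, mir-7225, mir-7227, mir-7231, mir-7235 and mir-7243 had at most 0.215 CPM in any library. None of the 11 passed the filter on reads, so they were tested only in the alternative without it.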

How the data were processed

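Small RNA was sequenced from 6 sperm libraries (CD and HFD) and 6 TM4 libraries (Ctrl, CC and Ang OE), grouped by the sample labels. According to the methods and the labels' processing notes, the authors trimmed reads with Trimmomatic 0.40 after FastQC 0.12.0 and annotated them with SPORTS1.1 against rRNA, tRNA, miRBase, other noncoding and piRNA databases in that order; the labels name the build mm10. The deposited files hold estimated counts per class and subclass, without normalization, and SPORTS1.1 shares out a read among all the subclasses it matches. Such division lowers a hairpin that shares sequence, and the order of databases gives reads of 2 kinds to miRBase.

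Matched and unmatched reads were added in pandas 2.3.3 (Python 3.11.15, with scipy 1.17.1 and numpy 2.4.6) and drawn with matplotlib 3.10.9. Rounded counts of all hairpins went into edgeR 4.0.16 under R 4.3.3 (quasi-likelihood, TMM, Benjamini-Hochberg over all hairpins tested, called at an adjusted p under 0.05), in 1 fit each for sperm, for the 3 TM4 groups and for all 12 libraries. Hairpins needed at least 10 reads in at least 3 sperm, 2 TM4 or 3 of 12 libraries. Data were simulated with the fitted spread and 194 to 197 hairpins changed by 2 on the log2 scale. Of these, 92.4% were called for CC against Ctrl (518 hairpins) and 95.9% for Ang OE against Ctrl (520 hairpins). The shares were 94.4% for Ang OE against CC (520 hairpins) and 99.5% for sperm against TM4 cells (594 hairpins). False calls numbered 4 to 8. The listed hairpins tested in TM4 cells had smaller fitted differences, so these shares do not give the power for them. Alternatives were DESeq2 1.42.0, miRBase reads or clean reads without rRNA as library size, no filter, genome-matched reads alone, the replicate number as a block, ComBat-seq (sva 3.50.0), a fit of the compared groups alone, each library left out, and other denominators for the sum, of which piRNA and germ cell miRNA reads were chosen after seeing the data, as were the bounds without CD replicate 2 and for the lowest library.

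The hairpins, marker lists and tests were chosen with earlier results of these data known. Values were given for the 6 hairpins with the highest mean CPM, those at an unadjusted p under 0.05 between the diets, those called in TM4 cells and the 3 most changed each way between sperm and TM4 cells; the other hairpins with enough reads and the neighbours in sequence or threshold were added after their values were seen. Places and mature sequences came from RefSeq (GRCm38.p6), and host genes from GENCODE M39 by name; RefSeq's gene spans place mir-7241 and mir-7242 within C2cd4b. Replicates differed by more than counting noise, so none was counted as a copy of another.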

Additional observations from a re-analysis of the deposited data

How the results depend on the processing

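Hairpins below the filter on reads were not tested in the main fits, and each TM4 group had 2 libraries. DESeq2 with its own size factors called 8 hairpins in HFD against CD sperm (1 higher, 7 lower) where edgeR called 0. The hairpins on the list at an unadjusted p under 0.05 in that comparison numbered 6 to 12 with a library left out. In CC against Ctrl the 22 hairpins called became 35 with the replicate number as a block and 35 with ComBat-seq, and 0 to 26 with a library left out (0 without CC replicate 1 or 2). The listed hairpins called in Ang OE against Ctrl numbered 0 to 1 with a library left out. The cause was not tested. mir-7226 in sperm against TM4 cells changed sign with miRBase reads as library size (-0.91), clean reads without rRNA (-1.15), no filter (-0.15) and without CD replicate 1 (-0.029); left-out libraries gave -0.029 to 0.43. mir-7237 (adjusted p = 0.0844) and mir-7238 (adjusted p = 0.155) were not called between sperm and TM4 cells with the replicate block.

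The log2 ratio of the summed level was 0.16 for CC against Ctrl and 0.018 without mir-7224, which has most TM4 reads. For Ang OE against Ctrl it was -0.65, -0.38 with TMM-scaled reads and -0.42 without mir-7224. For sperm against TM4 cells it was 3.34, 4.29 with TMM-scaled reads and 2.41 without mir-7217. For HFD against CD it kept its sign under all alternatives run, between -2.26 and -0.99 with a library left out and -1.78 and -1.03 otherwise. That contrast chose the range, so the constant sign is a description and no support for a diet difference. Correlations of deviations between same-numbered libraries were -0.32, -0.25 and 0.05 in sperm, -0.011 for Ctrl and CC, -0.16 for Ctrl and Ang OE and 0.22 for CC and Ang OE. The labels name no shared source and TM4 has 2 numbers, so the numbers were not taken as pairs; the block changed no other call named here.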
